A study of Sus scrofa with 92 samples.

Results

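The nuclear genes for the subunits of the mitochondrial respiratory chain and ATP synthase were described across tissues and breeds of the pig. Members were all genes whose pig symbol starts with NDUFA, NDUFB, NDUFC, NDUFS, NDUFV, UQCR, COX4 to COX8 or ATP5, together with SDHA, SDHB, SDHC and SDHD, without the NDUFAF assembly factors. This rule took 44 of 25322 gene IDs, of which 11804 had a symbol, and it used no measured value. By complex, 20 genes belong to complex I, 4 to complex II, 6 to complex III, 8 to complex IV and 6 to complex V. Another 28 symbols that the rule would take, among them the muscle forms COX6A2 and COX7A1, were not analysed here.

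Complex I (NADH dehydrogenase) and complex II (succinate dehydrogenase) pass electrons from NADH and succinate to coenzyme Q, complex III passes them to cytochrome c, and complex IV (cytochrome c oxidase) passes them to oxygen. Complexes I, III and IV pump protons across the inner membrane, and complex V (ATP synthase) uses their return to make ATP. Most subunits are made from nuclear genes and imported, while a small set of core subunits is made from the mitochondrial genome. Heart muscle, oxidative skeletal muscle fibres and the kidney tubule are known for many mitochondria, and complex IV is known for subunits that come in heart-and-muscle and liver forms.

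Gene expression was measured by RNA sequencing in 92 libraries of pigs aged 60 days, with 1 library per breed and tissue. The 5 Western breeds were Berkshire, Hampshire, Landrace, Large White and Piétrain, and the 5 Chinese pigs were Tibetan wild boar and the breeds Bamei, Jinhua, Meishan and Rongchang; this grouping is general knowledge and not in the labels. Psoas major, longissimus dorsi and spleen had libraries of all 10 breeds; heart, kidney, liver, ovary and subcutaneous adipose had 9 (without Tibetan wild boar); lung had 8 (also without Rongchang); and 9 libraries were mixtures of tissues. No agent or engineered allele is named, and the labels leave unsaid if 1 animal gave all tissues of a breed or if animals were pooled. Breeds therefore served as the replicates of a tissue.

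Levels below are FPKM as deposited, that is, fragments scaled to gene length and to the mapped total, and they allow genes to be compared per length. Differences are log2 differences from limma on FPKM scaled between libraries. Depth is unknown, and total FPKM ran from 519075 to 2196138. The summed markers of heart, liver, spleen, lung, kidney, adipose, ovary and skeletal muscle were highest in the tissue of that label, with 3 remarks. ACTA1, the skeletal muscle actin gene, is listed at 0 in 6 of 10 psoas major and 9 of 10 longissimus dorsi libraries and reached 37098 FPKM in another. ALB, the serum albumin gene, is listed at 0 in all 9 liver libraries while the summed liver markers there reached 11544 FPKM or more. Adipose libraries held skeletal muscle markers at a sum of 103 to 6293, highest in Meishan and lowest in Large White. By the median level of the members, the Large White adipose library stood above the other adipose libraries. In tissue samples, fewer cells of a type and less RNA per cell cannot be told apart.

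On deposited FPKM, heart held the highest median level of most subunit genes. By the median over breeds of deposited FPKM, 38 of the 43 expressed members were highest in heart, 2 in psoas major, 2 in kidney and 1 in spleen. Lung was the lowest tissue for 22 members and subcutaneous adipose for 11. On the values scaled between libraries the tally was 25 in heart, 14 in psoas major, 2 in longissimus dorsi, 1 in kidney and 1 in liver, with lung lowest for 32 and subcutaneous adipose for 1. The same tally over all gene IDs was not made. As deposited, 7974 of 12955 gene IDs were called higher in heart than in skeletal muscle. On scaled values 11 of 43 members were called for heart above every other tissue class, where 4.75% of gene IDs were. The deposited level in the highest tissue was 2.82 to 16.2 times that in the lowest, with a median of 5.93. The remaining member, NDUFA4L2, an alternative form of the complex IV subunit NDUFA4, stayed at or under 0.904 FPKM in every tissue library.

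**Figure D1:**
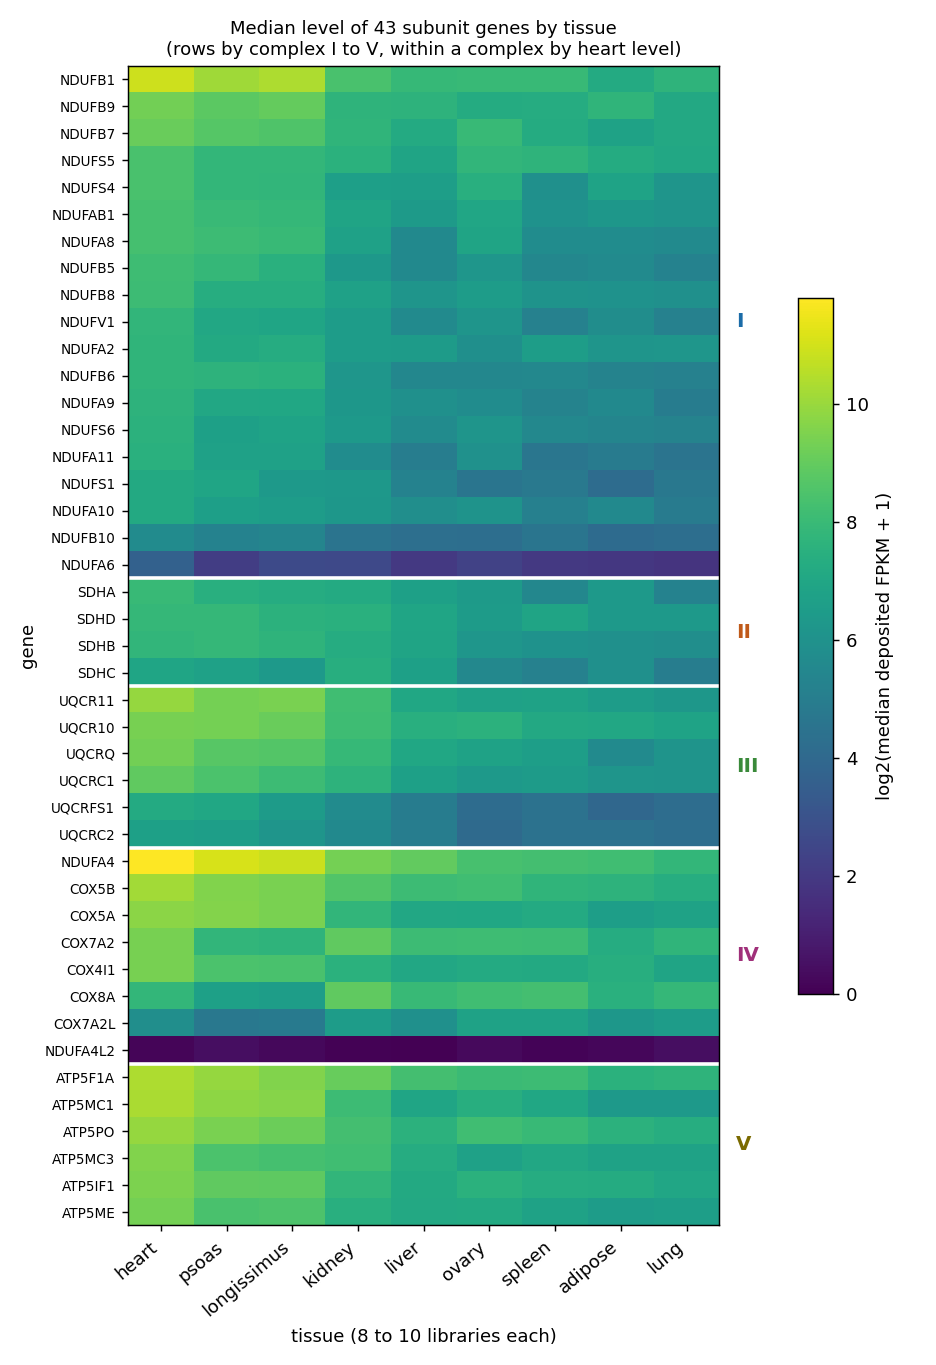
Colour gives log2 of the median deposited FPKM plus 1 for 43 genes (rows, by complex) in 9 tissues (columns, 8 to 10 libraries each). The 3 left columns, heart and both skeletal muscles, are brightest for most rows; COX8A, COX7A2L and SDHC are brighter in kidney than in heart, and NDUFA4L2 is near 0 throughout.

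Taken over the expressed members of a library, the median level in heart ran from 247 to 339 FPKM, with 298 in the middle. Psoas major ran from 149 to 279 with a median of 234, longissimus dorsi from 153 to 265 with 208, and kidney from 143 to 177 with 159. Liver, ovary and spleen had medians of 111, 105 and 92.4, adipose 81.9 and lung 70.7. In this order heart did not overlap kidney, and kidney did not overlap liver, whereas psoas major and longissimus dorsi overlapped each other and kidney. Libraries of liver, ovary, spleen and adipose overlapped their neighbours in the order. The order depends on scaling. On scaled values the medians were 386 in heart, 361 in psoas major and 325 in longissimus dorsi, which overlapped, and liver (142 to 178) lay above kidney (119 to 149) with overlap.

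On deposited FPKM the complexes followed this order with differences of their own. Complex V genes had the highest level in heart, with library medians of 722 to 1007 FPKM, and complex I genes the lowest, with 166 to 270. Complex II had the smallest step from heart to kidney: its median was 229.5 in heart, 195 in psoas major, 159 in kidney and 112 in liver. Complex III had a median of 557 in heart, 221 in kidney and 60.8 in adipose. For complex IV, kidney with a median of 382 stood above psoas major with 351 and longissimus dorsi with 339, and the 3 tissues overlapped. This median covers 7 genes, without the muscle forms COX6A2 and COX7A1. By tissue medians, COX7A2, COX8A and COX7A2L were higher in kidney than in psoas major. COX4I1, COX5A, COX5B and NDUFA4 were lower. Scaling changed several of these orders. For complex IV, scaled kidney libraries (252 to 361) lay below all psoas major (473 to 682) and longissimus dorsi libraries (411 to 956). For complex II the scaled median was 324 in psoas major and 272 in heart, and 166 in liver and 131 in kidney.

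**Figure D2:**
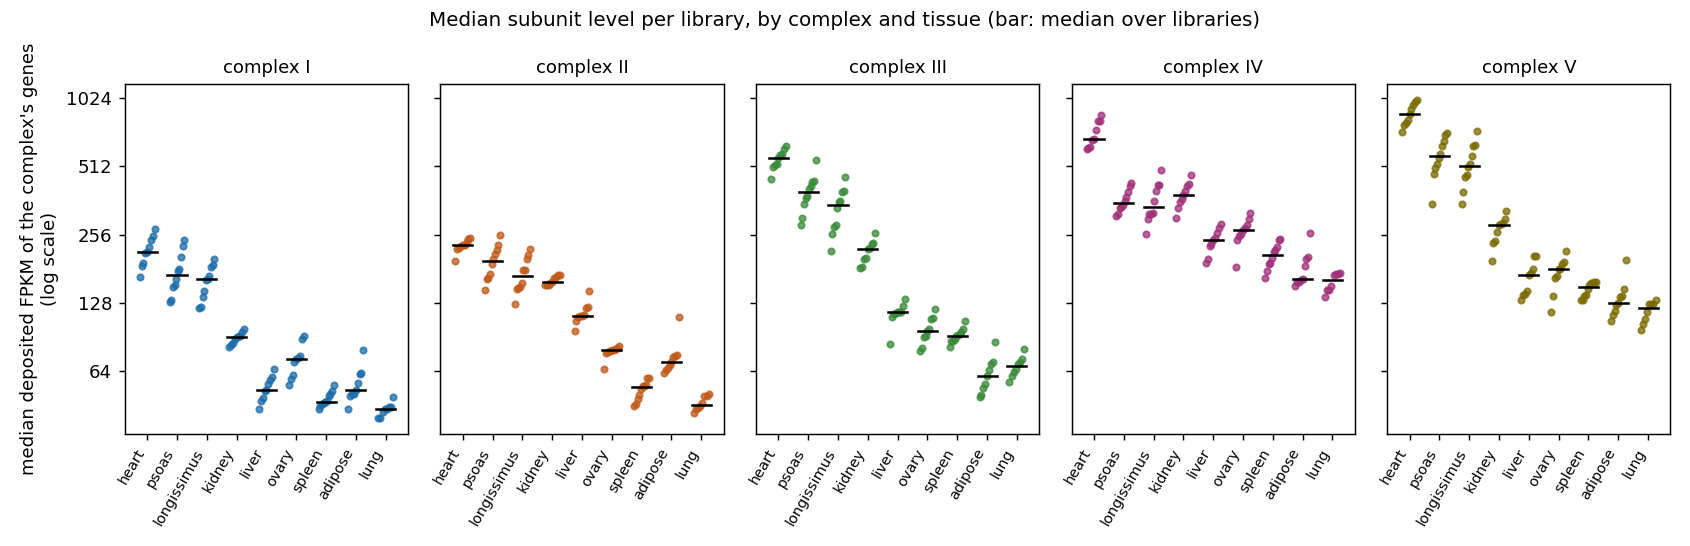
Each point is 1 library: the median deposited FPKM over the genes of a complex (log scale), by tissue, with bars at the median over libraries. On these unscaled values heart has the highest median in all 5 panels; kidney lies below the muscles for complexes III and V but among them for complex IV, and 1 adipose library, Large White, stands above the others.

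Single genes of 1 complex covered a wide range of levels. In heart, NDUFA4, now counted as a subunit of complex IV, was the highest member with 2892 to 3886 FPKM and a median of 3588. NDUFB1, an accessory subunit of complex I, followed with 1602 to 2249. The accessory subunits NDUFB10, with 41.7 to 69.9, and NDUFA6, with 0.824 to 24.3, were the lowest members of complex I there. Small subunits often have processed pseudogenes, and the sources used here do not state how reads shared with such copies were counted, so comparisons of level between genes are uncertain.

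Over the 9 tissue medians, the profile of a member resembled the median profile of the other expressed members in most cases. Pearson's r of log2 levels was above 0.9 for 39 of 43 members on the scaled values, with a median of 0.97. The members share libraries, so this is a description. COX7A2L had an r of -0.55, COX8A 0.14, COX7A2 0.80 and SDHC 0.89. Of these 4 members, 3 belong to complex IV.

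COX7A2, COX8A and COX7A2L departed from the rest of complex IV. COX7A2 is the liver form of subunit 7A, COX8A the form of subunit 8 found in most tissues, and COX7A2L a related protein that takes part in joining complexes III and IV. COX4I1, the main form of subunit 4, is shown for comparison and ran from 569 to 777 FPKM in heart with a median of 660. It ran from 309 to 431 in psoas major, 256 to 491 in longissimus dorsi and 169 to 199 in kidney. On deposited FPKM heart was apart from every other tissue and kidney was below all muscle libraries; on scaled values heart (651 to 968) overlapped both muscles, and kidney stayed below them.

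COX8A had the other order. Its level was 408 to 644 FPKM in kidney with a median of 484, 170 to 318 in heart with a median of 224, 48.9 to 151 in psoas major and 55.5 to 121 in longissimus dorsi. As deposited, kidney lay above every heart library, and every heart library above every muscle library. On scaled values heart (195 to 396) overlapped kidney (341 to 498) and both muscles, while kidney stayed above both muscles. Spleen had a median of 313, ovary 290, liver 248, lung 234 and adipose 179, all above the muscle medians; on scaled values lung, at 157, was below psoas major, at 161. Within a library, COX8A was 0.362 of COX4I1 in heart, 0.288 in psoas major and 0.234 in longissimus dorsi by the median, against 2.59 in kidney and 1.88 in liver. These ratios do not depend on scaling; the pair was chosen after its values were seen and is given without a test.

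COX7A2 was high in heart as well as in kidney. It ran from 497 to 862 FPKM in heart with a median of 665, and from 396 to 611 in kidney with a median of 478. In psoas major it ran from 70.1 to 344 and in longissimus dorsi from 78.0 to 273, with Tibetan wild boar lowest in both. Heart and kidney overlapped, and all heart and kidney libraries were above all muscle libraries. On scaled values every heart library (597 or more) was above every kidney and muscle library, and kidney (330 to 498) overlapped the muscles. The ratio of COX7A2 to COX5A, another nuclear subunit, was 0.821 in heart, 0.264 in psoas major and 0.252 in longissimus dorsi, against 2.11 in kidney and ovary. The gap between heart and muscle was smaller with other partners. With COX4I1 the medians were 1.01, 0.577 and 0.525, and adipose, at 0.947, was below heart. With COX5B they were 0.579, 0.275 and 0.266. None of these pairs was planned, and they are given without a test.

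COX7A2L was lowest in the muscles, with 14.8 to 40.2 FPKM in psoas major and 18.5 to 35.9 in longissimus dorsi. Heart had 39.2 to 65.5 and kidney 82.4 to 103, and liver had a median of 59.7. Spleen and ovary, with medians of 111 and 109, were the highest tissues and overlapped. Heart overlapped psoas major at its lower end and lay below all kidney libraries. On scaled values the muscles were again lowest, liver had the highest median at 84.2, and heart (47.1 to 74.9) overlapped kidney (66.4 to 85.9).

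**Figure D3:**
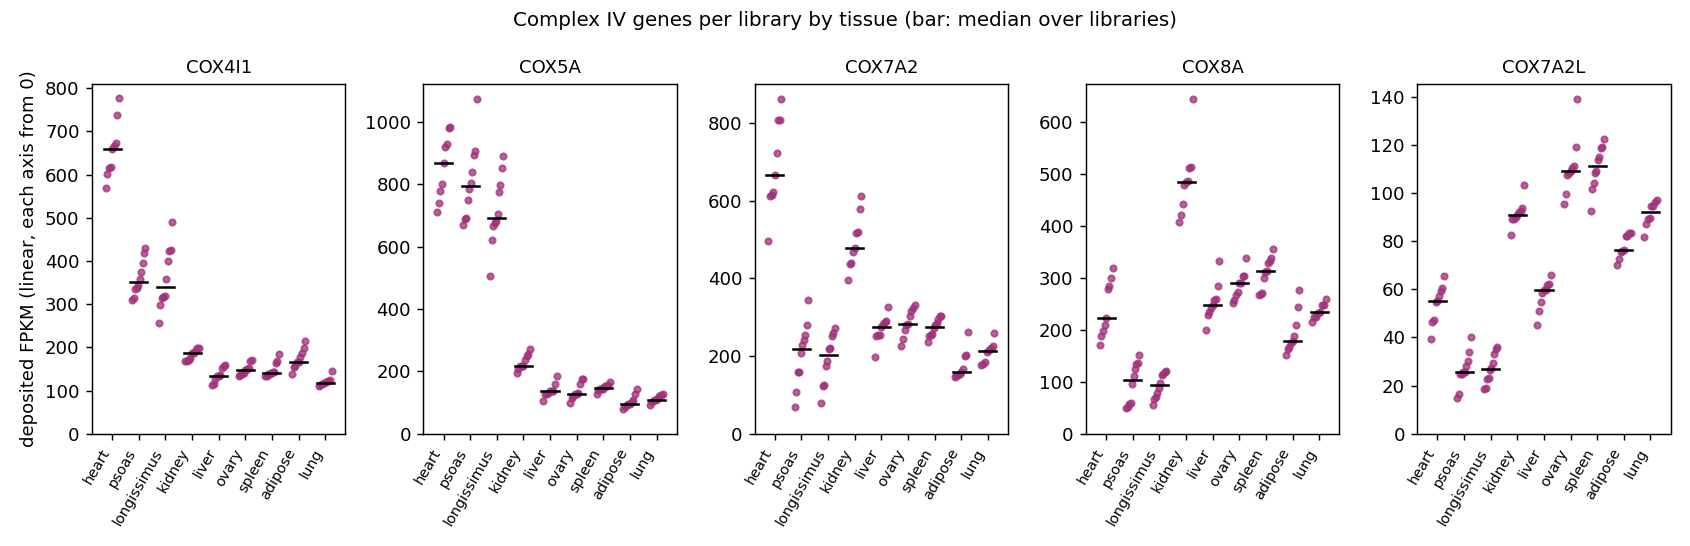
Deposited FPKM of 5 complex IV genes (linear axes from 0) in each library by tissue, with bars at the median. COX4I1 and COX5A are high in heart and muscle and low elsewhere; COX8A and COX7A2L are low in muscle, and COX7A2 is high in heart and kidney.

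Heart and kidney, the organs best known for mitochondria, were compared in 9 breeds. Nearly the whole chain was higher in heart: 40 of 43 tested members were called higher and 2 lower, where 39.1% of all 14122 gene IDs tested were called higher and 41.4% lower (limma, adjusted p under 0.05 over all gene IDs). The median difference was 1.91 on the log2 scale, or 3.75-fold, against -0.03 over all gene IDs. All 20 genes of complex I, all 6 of complex III and all 6 of complex V rose, as did 5 of 7 of complex IV and 3 of 4 of complex II.

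The largest difference was that of NDUFB1. Its level was 1602 to 2249 FPKM in heart and 251 to 375 in kidney, where the median was 340, and the groups did not overlap (log2 difference 3.08, SE 0.08, limma adjusted p = 1.5e-11, higher in 9 of 9 breeds). NDUFA4, at 502 to 750 in kidney, was 2.98 higher (SE 0.08, limma adjusted p = 2.78e-11). ATP5MC1, a gene for the membrane ring (subunit c) of ATP synthase, ran from 1005 to 1710 FPKM in heart and from 172 to 318 in kidney and was 2.90 higher (SE 0.12). ATP5ME, a small subunit of the same membrane part, was 2.47 higher, with 566 to 763 in heart and 135 to 211 in kidney. For these 4 genes every heart library exceeded every kidney library.

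Complex II differed least. SDHA, the flavoprotein that oxidises succinate, ran from 209 to 291 FPKM in heart and 140 to 162 in kidney, a difference of 1.27 (SE 0.08). SDHB, the iron-sulfur subunit, was 184 to 233 against 141 to 166 and 1.02 higher, and SDHD, a membrane anchor, was 0.96 higher. SDHC, the other anchor, did not pass: it was 90.6 to 139 FPKM in heart and 159 to 221 in kidney, and its scaled log2 difference was -0.03 (SE 0.09, limma adjusted p = 0.774). SDHC was called lower on FPKM as deposited, at -0.55, where the median of all gene IDs was -0.46, and with quantile normalization, at -0.48 (limma adjusted p = 7.77e-05), where that median was 0.09. SDHA, SDHB and SDHD stayed higher with smaller differences of 0.75, 0.50 and 0.44 as deposited and 0.74, 0.50 and 0.38 with quantile normalization.

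COX8A and COX7A2L were the 2 members lower in heart. COX8A fell by 0.51 (SE 0.11, limma adjusted p = 0.00141, lower in 9 of 9 breeds). COX7A2L fell by 0.24 (SE 0.09, limma adjusted p = 0.0234, lower in 8 of 9 breeds), and without Piétrain it was -0.21 and did not pass. COX7A2, by contrast with COX8A, was 1.00 higher in heart (SE 0.08), the smallest rise in complex IV. That of COX7A2 was 0.47 as deposited, and 0.03 and not called with quantile normalization (limma adjusted p = 0.633). COX8A was at -1.03 and -1.31 in these scalings, and COX7A2L at -0.76 and -0.51. The same 40 members were called higher with FPKM as deposited, with 3 members lower, and 39 and 3 were called with quantile normalization, 39 of them shared. As deposited, 3118 of 14241 gene IDs were called higher and 8923 lower. With quantile normalization 6405 of 14256 were called higher and 5109 lower.

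Lists of genes that serve the chain were read against the 39.1% of all gene IDs called higher. Of 26 assembly factors tested, 19 rose in heart and 3 fell, with a median of 0.62. Of 12 genes for cytochrome c and coenzyme Q synthesis, 11 rose, with CYCS, cytochrome c itself, at 3.12. Of 13 regulators of mitochondrial biogenesis 8 rose, led by ESRRA at 1.47, and 5 fell, led by ESRRB at -1.40. From the mitochondrial genome, 9 of 13 genes rose and none fell; the other 4, COX1, COX3, ATP6 and ATP8, are each listed at 0 in 3 of 9 heart libraries, where their medians were 32218 FPKM or more.

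Heart was next set against the mean of both skeletal muscles in the same 9 breeds, so the heart libraries are shared with the comparison above. Of 43 members, 16 were called higher in heart and 3 lower, where 35% of 12851 gene IDs were called higher and 34.1% lower, so with this scaling the share of members called higher was close to that of all gene IDs. The median difference was 0.16, against 0.00 over all gene IDs. The counts depend on scaling: FPKM as deposited gave 38 higher and 0 lower, where 7974 of 12955 gene IDs were called higher and their median was 0.32. Quantile normalization gave 35 and 0, where 4585 of 12876 gene IDs were called higher, their median was 0.01 and that of the members 0.51.

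Every tested member of complex IV was called, 6 of 7 higher and 1 lower. COX7A2 was 1.33 higher in heart (SE 0.10, limma adjusted p = 3.88e-10) and COX8A 0.89 higher (SE 0.09, limma adjusted p = 2.78e-08). COX7A2L was 0.55 higher, COX4I1 0.42 and NDUFA4 0.38. All of these but NDUFA4 were higher in 9 of 9 breeds, and NDUFA4 in 7. In all 3 scalings these 5 genes were higher in heart, with COX4I1 at 0.84 as deposited and 0.79 with quantile normalization, NDUFA4 at 0.79 and 0.84, and COX7A2L at 0.95 and 0.69.

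ATP5MC3, another gene for subunit c, had the largest rise outside complex IV, at 0.79 (SE 0.12, limma adjusted p = 5.85e-06, higher in 9 of 9 breeds). It ran from 631 to 940 FPKM in heart, against a mean of 352 ± 93.1 (SD, n = 10) for psoas major and 315 ± 96.0 (SD, n = 10) for longissimus dorsi. As deposited every heart library was above every muscle library, and on scaled values heart (721 to 1122) overlapped both muscles. The difference was 1.20 as deposited and 1.13 with quantile normalization. Its partner ATP5MC1 had 0.19 (SE 0.11, limma adjusted p = 0.115), and 0.61 and 0.55, both called, in those scalings. Within a library, ATP5MC1 was 1.57 to 1.91 times ATP5MC3 in heart, 2.09 to 3.19 in psoas major, 2.25 to 3.34 in longissimus dorsi and 0.656 to 1.10 in kidney. The log2 ratio was lower in heart than in muscle by a mean of -0.60 ± 0.20 (SD, n = 9 breeds), lower in 9 of 9 breeds (exact two-sided permutation over breeds, p = 0.00391, the smallest this design allows; adjusted over the 4 ratio tests, 0.0156).

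Among the 3 members lower in heart were SDHB at -0.41 (SE 0.07) and COX5A at -0.26 (SE 0.08), with limma adjusted p of 7.23e-05 and 0.00673. On FPKM as deposited the differences of SDHB and COX5A turned to 0.0051 and 0.15. SDHB was 184 to 233 FPKM in heart, 190 to 304 in psoas major and 155 to 272 in longissimus dorsi. The heart libraries of SDHB lay inside the joint range of the muscle libraries.

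The ratio of NDUFA4L2 to NDUFA4 rests on very low NDUFA4L2 levels. The log2 ratio was lower in heart by a mean of -1.75 ± 1.21 (SD, n = 8 breeds, 1 left out for a value of 0), in 8 of 8 breeds (exact two-sided permutation, p = 0.00781, adjusted 0.0156). NDUFA4L2 itself was at 0.0332 to 0.276 FPKM in heart and 0.0540 to 0.724 in psoas major, levels whose counting error is unknown. Fast fibre markers had a sum of 0.0768 to 0.928 FPKM in heart and 1275 or more in both muscles.

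Each member was also tested for being highest in 1 of 8 tissue classes. At a log2 difference above 1 from every other class, COX7A2 was the single member called, for heart, with kidney nearest (1.01; 1.4% of 16909 gene IDs were called for heart). Without Bamei, Landrace or Piétrain it was not called. At any difference above 0, heart took 11 members, where 4.75% of gene IDs were called, and skeletal muscle 6, where 9.03% were called. Among the muscle members were SDHB, SDHD, UQCRC2, UQCR10 and COX5A, with margins over heart of 0.18 to 0.43. These margins depend on scaling. As deposited, their heart minus skeletal muscle differences were 0.0051, 0.25, 0.24, 0.19 and 0.15, in that order. SDHD and UQCRC2 were called higher in heart there. With quantile normalization SDHD was again called higher in heart (0.19), and SDHB was at -0.07 and not called. No member was called for kidney, liver, lung, ovary, spleen or adipose, where 7.19%, 11.4%, 4.45%, 14.8%, 10.3% and 4.99% of gene IDs were called.

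The skeletal muscles were compared in 10 breeds. In psoas major 10 members were called higher and 2 lower, where 12.7% of 12061 gene IDs were called higher and 15.1% lower. The median of the members was 0.16, or 1.12-fold, against -0.01 over all gene IDs, and 33 of 43 had a positive difference. Of 9 catalytic and core subunits 6 were called higher and none lower, with a median of 0.35. Of the 34 other members 4 were called higher and 2 lower, with a median of 0.10. The difference between these role groups was not tested.

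The 4 largest rises were those of core subunits of complexes I and III and an anchor of complex II. UQCRC2, a core protein of complex III, was at 106 ± 30.2 FPKM in psoas major (mean ± SD, n = 10) with a median of 96.8 and a maximum of 156, and ran from 49.7 to 105 in longissimus dorsi with a median of 71.5. The ranges overlapped, and psoas major was higher in 10 of 10 breeds (0.54, SE 0.08, limma adjusted p = 0.000645). NDUFS1, the largest iron-sulfur subunit of complex I, ran from 67.0 to 156 against 56.2 to 108 and was 0.54 higher (SE 0.09, limma adjusted p = 0.0013, 10 of 10 breeds).

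UQCRFS1, the Rieske iron-sulfur protein, was 75.4 to 166 FPKM in psoas major and 66.8 to 108 in longissimus dorsi, a difference of 0.50 (SE 0.08, limma adjusted p = 0.00104). SDHC was 86.9 to 197 against 61.4 to 121, a difference of 0.49 (SE 0.12, limma adjusted p = 0.0105). Both were higher in 10 of 10 breeds although their ranges overlapped. Among the other 6 called higher were ATP5F1A, the alpha subunit in the head of ATP synthase, at 0.38, NDUFB5 at 0.29, UQCRC1 at 0.29, NDUFA4 at 0.27 and SDHD at 0.25.

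NDUFB1 and NDUFB9, accessory subunits of the membrane arm of complex I, were lower in psoas major. NDUFB1 ran from 255 to 1546 FPKM with a median of 1112, against 823 to 2787 with a median of 1323 in longissimus dorsi (-0.46, SE 0.15, limma adjusted p = 0.0379, lower in 8 of 10 breeds). NDUFB9 ran from 296 to 640 with a median of 453, against 391 to 894 with a median of 510 (-0.35, SE 0.07, limma adjusted p = 0.00383, lower in 9 of 10 breeds). With quantile normalization NDUFB1 was at -0.22 and NDUFB9 at -0.15, and neither was called. In the whole of complex I 3 genes rose and 2 fell, in complex III 3 of 6 rose, and in complex IV 1 of 7 rose.

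Lists of other genes that serve the chain were read against the 12.7% of all gene IDs called higher in psoas major. From the mitochondrial genome 8 of 13 genes rose and none was called lower, with a median of 0.71. Of the others COX1 is listed at 0 in 4 of 10 psoas major libraries and COX3, ATP6 and ATP8 in 5 each, against 0 or 1 in longissimus dorsi. The medians of COX3, ATP6 and ATP8 in psoas major, 11398, 14859 and 4732 FPKM, were below the 21164, 33925 and 36132 of longissimus dorsi. Of 26 assembly factors 6 rose, led by LRPPRC at 0.54, and 1 fell, UQCC2 at -0.65. Of 12 genes for cytochrome c and coenzyme Q synthesis 6 rose, with CYCS at 0.45 and COQ8A at 0.61, and of 12 regulators 5 rose, with ESRRA at 0.50 and TFB2M, a mitochondrial transcription factor, at 0.42.

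Markers of fibre types and other cells moved as well, and their part in these differences was not tested. Fast fibre markers were lower in psoas major for 2 of 3 genes tested, with sums of 1275 to 3143 FPKM against 2533 to 4793. Slow fibre markers were higher for 2 of 5, with sums of 5973 to 14426 against 4115 to 12424. Liver markers were lower for 4 of 5 genes (sums of 0.116 to 9.31 against 0.122 to 146), and 1 of 2 adipose markers was lower. The 10 higher and 2 lower calls became 5 and 2 without Jinhua, 22 and 0 with quantile normalization, and 3 and 0 without breed in the model. With quantile normalization 1751 of 12076 gene IDs were called higher and 1523 lower.

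**Figure D4:**
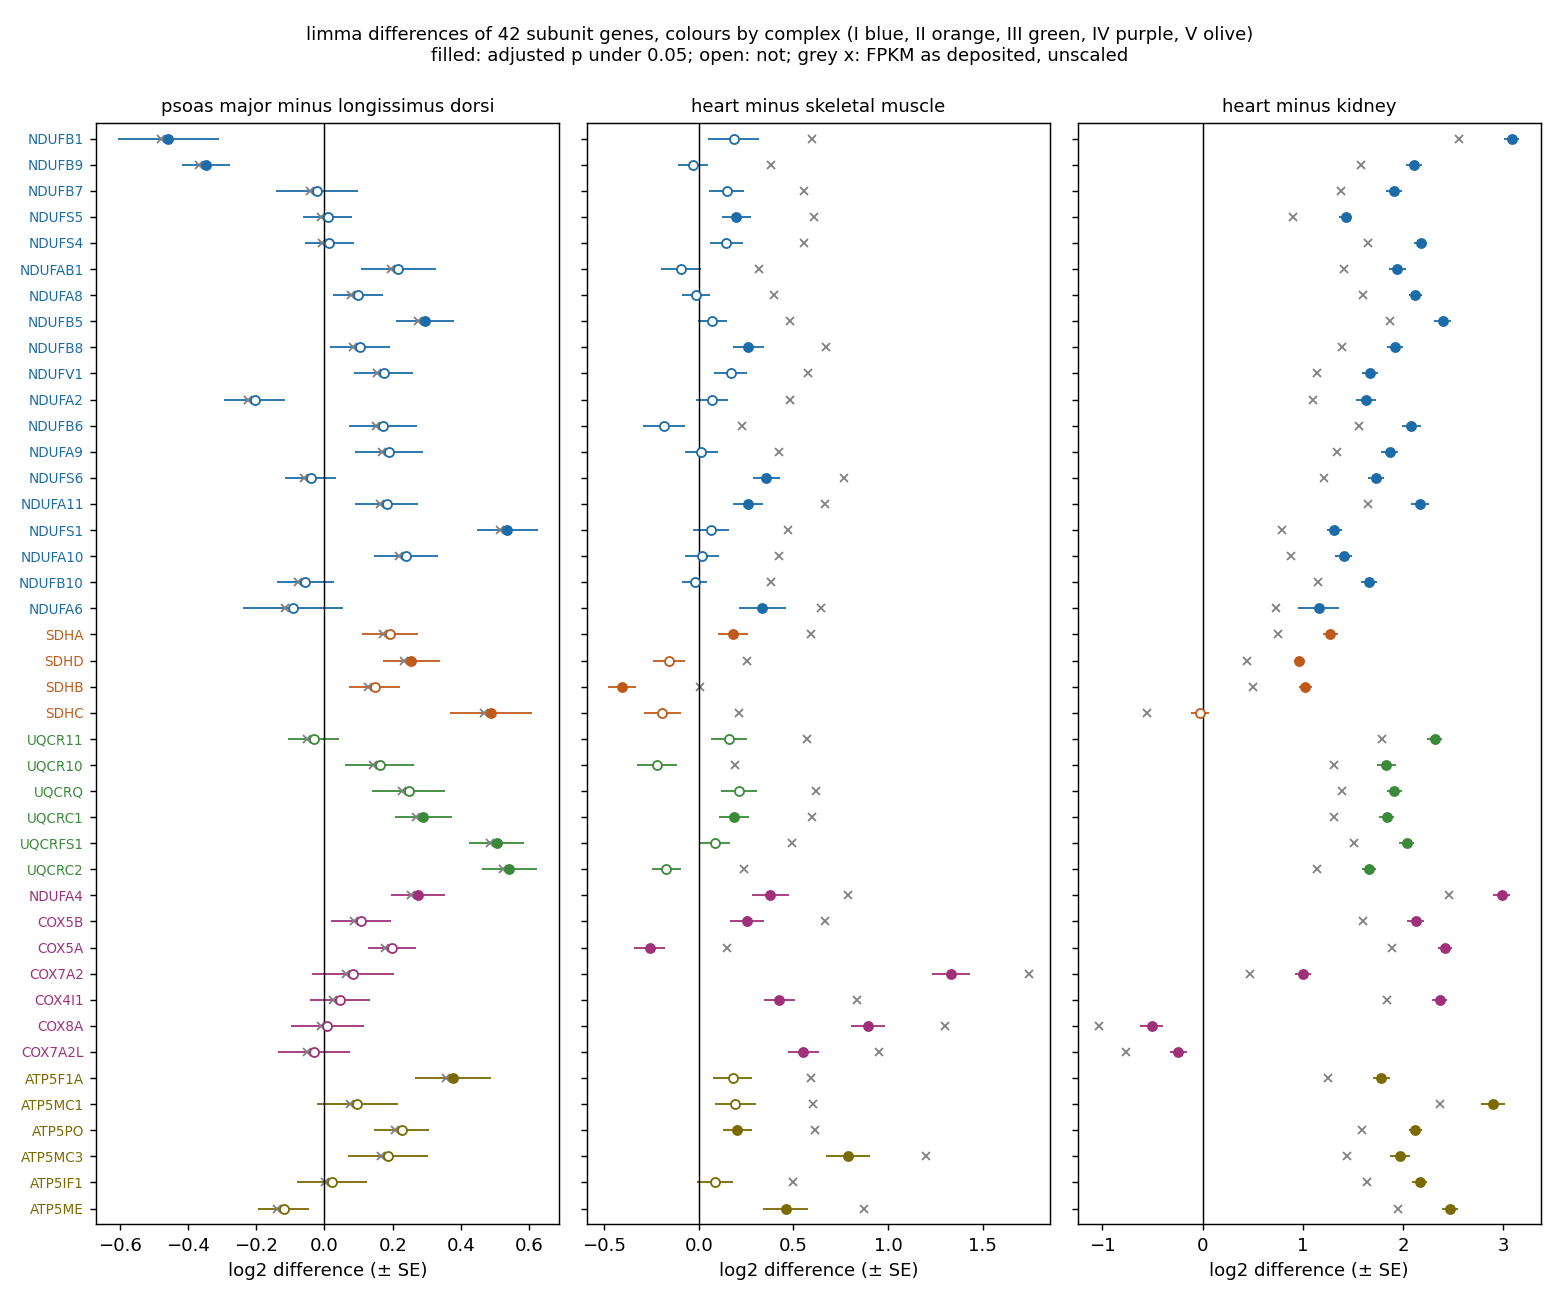
Log2 differences (points, ± SE) of 42 members in 3 comparisons, with filled points at adjusted p under 0.05 and grey crosses for FPKM as deposited. Heart exceeds kidney for all but COX8A, COX7A2L and SDHC in either scaling; heart minus skeletal muscle shifts to the right on deposited values, and psoas major minus longissimus dorsi hardly moves.

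For kidney and liver, compared in 9 breeds, the members as a set had no direction that held across scalings. With scaling 5 of 43 members were called higher in kidney and 20 lower, where 38% of 13990 gene IDs were called higher and 38.7% lower, and the median was -0.12. With FPKM as deposited 39 were called higher and 0 lower, where 9897 of 14202 gene IDs were called higher and 2225 lower. The median there was 0.65 for the members and 0.62 for all gene IDs. With quantile normalization 40 were called higher and 2 lower, with a median of 0.83, where 5664 of 14130 gene IDs were called higher and their median was 0.02. Among the 5 members called higher with scaling were UQCR11 at 0.37, NDUFA8 at 0.33, NDUFS1 at 0.30 and COX8A at 0.15. All 5 were also called higher as deposited and with quantile normalization.

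The largest falls with scaling were NDUFS4 at -0.72, NDUFA2 at -0.68, NDUFB9 at -0.58 and ATP5ME at -0.55, and each of them turned positive on deposited values and with quantile normalization.

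Breed took a small share of the total variance of most members. Over the libraries of 9 breeds and 8 tissues, tissue took a median of 96.3% of the variance of log2 levels of a member and breed 0.92%, against a breed share of 4.21% over 16707 gene IDs. Of the variance within tissues alone, breed took a median of 25.1% for members and 25.5% over all gene IDs. NDUFA6, an accessory subunit of complex I, was the exception: breed took 65.0% of its variance and tissue 24.4%, a breed share that ranked 97 among the 16707 gene IDs. The next member, COX8A, had 8.19%.

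The breeds differed in NDUFA6 across their tissues. In Hampshire it ran from 0.277 to 1.12 FPKM over 9 tissues, with a median of 0.527, and in Landrace from 0.628 to 2.29 with a median of 0.873. In Jinhua it ran from 3.65 to 24.3 with a median of 9.29, and in Piétrain from 5.06 to 21.1 with a median of 8.38. All 9 Hampshire libraries were below all 9 of Jinhua and all 9 of Piétrain. Both Jinhua, a Chinese breed, and Piétrain, a Western one, were high. From FPKM alone, a breed difference in NDUFA6 expression cannot be told apart from one in mapping or quantification. Neither was tested.

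**Figure D5:**
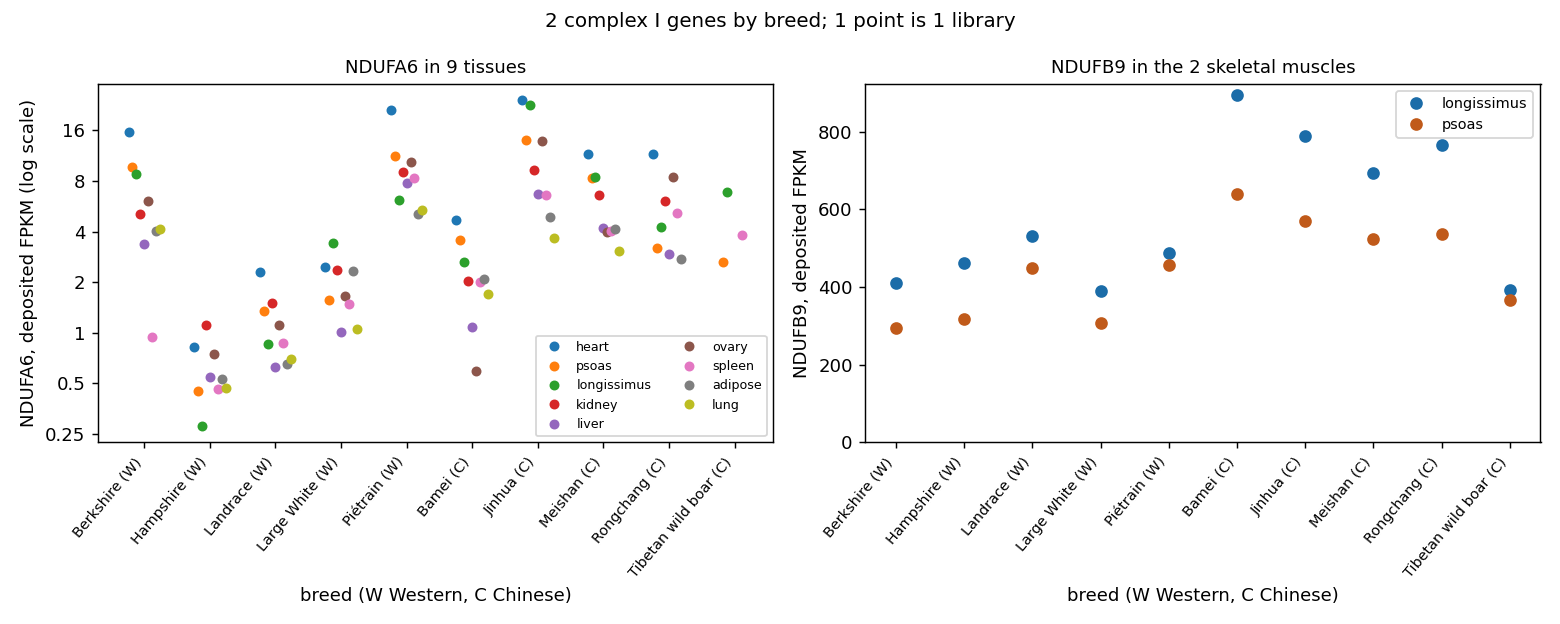
Left, NDUFA6 (deposited FPKM, log scale) by breed, 1 point per tissue library: Hampshire stays at or below 1.12 and Jinhua at or above 3.65. Right, NDUFB9 (deposited FPKM) in both skeletal muscles by breed: Bamei, Jinhua, Meishan and Rongchang lie above the Western breeds in longissimus dorsi, and Tibetan wild boar does not.

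Origin was compared with breed as the replicate. Over 8 tissues no member was called (0 of 43, where 0.168% of 16643 gene IDs were called higher in Chinese breeds and 0.144% lower; limma). At an unadjusted p under 0.05 there were 2, COX8A and NDUFA2, both lower in Chinese breeds, and the smallest adjusted p was 0.491. Within single tissues no member was called in any of the 9, and the count at an unadjusted p under 0.05 was 0 to 2 in each tissue except subcutaneous adipose with 13. The share of gene IDs called in either direction was 0.231% in heart, 0.136% in liver, 0% in spleen, 0.164% in lung and 0.222% in kidney. It was 0.0261% in psoas major, 0.0435% in longissimus dorsi, 0.0928% in adipose and 0.0736% in ovary.

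In subcutaneous adipose 42 of 43 members had lower values in Chinese breeds, with a median of -0.31, against 51.2% of all 12935 gene IDs and a median of -0.01. The 13 members with an unadjusted p under 0.05 were all lower; over all gene IDs 5.19% were lower at that p. The smallest adjusted p was 0.280, that of NDUFA9, an accessory subunit of complex I, so no member passes. NDUFA9 was at 51.4, 48.3, 51.2, 58.8 and 52.8 FPKM in Berkshire, Hampshire, Landrace, Large White and Piétrain, and at 32.9, 34.8, 46.1 and 41.5 in Bamei, Jinhua, Meishan and Rongchang. All 5 Western libraries were above all 4 Chinese ones. The members share libraries, so their directions are not independent. Members with lower values in Chinese breeds were also frequent elsewhere. They numbered 36 of 43 over 8 tissues, 35 in heart, 34 each in liver and spleen, and 33 each in kidney and longissimus dorsi. In psoas major, lung and ovary they numbered 24, 21 and 16.

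Large White adipose stood above the others, with a median member level of 115 FPKM against 70.6 to 90.8. Without it 42 of 43 members were still lower in Chinese breeds, with a median of -0.21 and 12 at an unadjusted p under 0.05. With another breed left out, the latter count ran from 8 (without Bamei, Jinhua or Rongchang) to 18 (without Piétrain). With FPKM as deposited the counts were 40 of 43 and 6, where 2.72% of all gene IDs were lower at that p. With quantile normalization they were 41 of 43 and 6, against 4.79%. Adipose markers had sums of 851 to 1292 in Western and 882 to 1210 in Chinese libraries, and skeletal muscle markers 103 to 1748 and 242 to 6293; their part was not tested.

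NDUFB9 was the single member whose tissue profile differed by origin (moderated F test over tissues in limma, adjusted p = 0.0013, chosen after seeing the data). Of 16643 gene IDs 2.39% were called, so 1 of 43 members was close to the share of all gene IDs. In longissimus dorsi NDUFB9 was 394 to 894 FPKM in Chinese pigs, with Tibetan wild boar lowest and a median of 766. It was 391 to 533 in Western breeds with a median of 461. In heart it was 612 to 1075 against 509 to 667. In subcutaneous adipose the order was the other way: 164 to 206 in Chinese and 211 to 245 in Western breeds, without overlap. There 42 of 43 members had lower scaled values in Chinese breeds. The test left Tibetan wild boar out, and adjusted p stayed between 0.000545 and 0.0298 when each of the 9 breeds was left out. In a test of whether the difference between psoas major and longissimus dorsi varied by origin, 0 of 43 members passed (limma, smallest adjusted p = 0.927; 1 at an unadjusted p under 0.05), and 0% of all 12061 gene IDs were called.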

How the data were processed

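The authors deposited FPKM per gene ID for each breed, made with TopHat and Cufflinks 2.2.1 on Sscrofa10.2, per the submitters' processing notes; annotation release, options and filters are not given in the sources used here. Symbols came from a list of names by gene ID. Depth is unknown, so error here means the spread over breeds.

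For each fit, FPKM were scaled by median ratios, gene IDs that reached 1 FPKM in 3 or more libraries were kept, and log2(FPKM + 1) was fitted with limma 3.58.1 (trend, robust; R 4.3.3, statmod 1.5.0), which gives fold changes that understate those of low genes. P-values were two-sided, adjusted by Benjamini-Hochberg over all gene IDs, with 0.05 as threshold. The fit was run on simulated libraries of both muscles. They held no shared breed effect and no shift between libraries, so they do not test the breed block or the scaling. Breed was a block in tissue comparisons. The labels name the breed of each library. In psoas major and longissimus dorsi the deviations of same-breed libraries from the tissue means correlated at 0.32 to 0.53 over gene IDs in all 10 breeds. For heart and kidney this was 0.057 to 0.25, and for kidney and liver 0.17 to 0.34. For heart it was -0.023 to 0.42 with psoas major and 0.13 to 0.43 with longissimus dorsi. Zero values were kept. Ratios within a library used exact permutation over breeds. Description used Python 3.11.15 with pandas 2.3.3 and scipy 1.17.1.

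Members, lists and tests were chosen with earlier results of these data known. Values by library are given for members of isoform pairs, SDHA to SDHD, the 4 called members with the largest difference per direction and comparison, and minority-direction calls of 5 or fewer; COX4I1, NDUFA6, NDUFA9 and NDUFB10 were named after their values were seen. Medians over members leave out NDUFA4L2. Alternatives were deposited FPKM, quantile normalization, a pseudocount of 0.1, other filters, plain moderation, zeros set to missing, each breed left out and no block. P-values measure the spread between libraries of different breeds. The mixtures entered no test. One member enters the counts and medians and is not reported here singly.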

Additional observations from a re-analysis of the deposited data

Results flagged for a closer look

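In each tissue, the complex medians of the libraries were searched for a value far from the rest of its group, by its gap to the nearest other library over the whole range. Of 50 groups tested 6 had such a value, and of 387 groups of single member levels 34, where chance flags about 1 in 20. Groups share libraries and are not independent, so this rate is only a rough guide. Of the 34 member levels, 12 were high values of the Large White adipose library. Large White adipose was high for complex II (111 FPKM), complex IV (261) and complex V (198). Meishan ovary was low for complex II (65.1) and Rongchang liver low for complex III (84.0). Among the mixtures, which have no comparison, Landrace was high for complex V (385), next to a skeletal muscle marker sum of 18210 FPKM, the highest of the 9. NDUFB9 was marked because its tissue profile differed between Chinese and Western breeds (limma adjusted p = 0.0013). It was 1 of 43 members, where 2.39% of all gene IDs were called.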

How the results depend on the processing

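Heart minus kidney kept 40 higher members in each breed-out fit, with 1 to 2 lower (1 without Piétrain), and had 39 and 3 with quantile normalization; SDHC, -0.03 with all breeds, ran from -0.082 to 0.022 and was above 0 without Hampshire or Meishan. Psoas major minus longissimus dorsi moved from 10 higher and 2 lower to 22 and 0 with quantile normalization and 3 and 0 with no replicate block; no filter gave 1 lower, and leaving out breeds gave 5 to 13 higher (5 without Jinhua) and 1 to 2 lower (1 without Hampshire, Landrace, Large White or Rongchang). Heart minus skeletal muscle moved from 16 and 3 to 38 and 0 as deposited, 35 and 0 with quantile normalization and 10 higher with no replicate block. Leaving out breeds gave 11 to 16 higher and 3 to 6 lower (6 without Bamei, Hampshire or Piétrain).

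In that comparison SDHB, COX5A, SDHC and SDHD turned to 0.0051, 0.15, 0.21 and 0.25 as deposited, and COX5A, SDHC and SDHD to 0.068, 0.059 and 0.19 with quantile normalization. Kidney minus liver moved to 39 and 0 as deposited and 40 and 2 with quantile normalization. NDUFS4, NDUFA2, NDUFB9, ATP5ME, SDHA, SDHB, SDHC and SDHD turned to 0.066, 0.099, 0.20, 0.23, 0.49, 0.26, 0.67 and 0.58 as deposited, and to 0.14, 0.14, 0.54, 0.46, 0.65, 0.46, 0.88 and 0.81 with quantile normalization.

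The heart class held 0 members at a log2 difference above 2 and 0 to 1 when a breed was left out. The ATP5MC1 to ATP5MC3 ratio was lower in psoas major than in longissimus dorsi by -0.09 (exact permutation over 10 breeds, adjusted p = 0.0469), and -0.10 to -0.062 without 1 breed, where 8 of 10 fits missed the threshold. The NDUFA4L2 to NDUFA4 ratio was 0.35 higher there (not called), -0.060 with a pseudocount of 1, and 0.19 to 0.74 without 1 breed, passing without Tibetan wild boar. No origin count moved from 0 in any setting run. The cause of these changes was not tested. NDUFA4L2 and NDUFA6 had the lowest median levels of the members. The part of depth in their values was not tested, as no counts are at hand.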
